A study of Mus musculus with 15 samples.

Results

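DNA replication and mitosis genes were followed through macrophages that had been exposed to heme or to a polarizing cytokine. They are 40 genes, 21 that act in S phase and 19 that act in mitosis, taken by name out of the 25700 in the count table. All 40 passed the filter on low counts, as did 11883 genes in all. The cells were bone marrow derived macrophages of 8- to 10-week-old mice, that is, marrow cells kept in 10 ng/ml of M-CSF over 7 days. RNA was sequenced from 15 libraries in 5 groups of 3, which were 400 µM heme-albumin (heme-albumin 400 below), 200 µM heme-albumin (heme-albumin 200), 10 ng/ml IL-4, 10 ng/ml IFN-γ, and untreated controls. Heme was given as hemin bound to human serum albumin, and no albumin-only group was analysed here, so heme and its carrier cannot be told apart. At the higher dose 1 tag of the labels differs by 1 or 2 µM between the 3 libraries, while titles and protocol say 400 µM. Mouse strain and time under treatment are not given in the sources used here. Nothing in them says that replicates are separate animals or cultures, so the p-values describe how much these libraries vary, which may be technical.

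Macrophages grown from marrow divide in response to M-CSF, the ligand of the receptor Csf1r. Before S phase, origins of replication are licensed by Cdc6 and Cdt1, which load the Mcm2 to Mcm7 helicase onto DNA, and E2F factors drive the transcription of these genes once cyclin E and cyclin D kinases have inactivated the retinoblastoma protein. Mitosis is set off by Cdk1 with its cyclins, is carried out by the Aurora and Polo kinases, kinetochore proteins and kinesins, and ends when the anaphase-promoting complex destroys the cyclins. In mouse macrophages, IFN-γ is known to block the growth response to M-CSF, and IL-4 is known to drive proliferation of resident macrophages in tissues.

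The libraries held 8427352 to 28587416 counts. All 7 macrophage markers looked at were detected in every group, and their summed level was 41609 to 51749 CPM with heme-albumin 400, 46401 to 55173 CPM with heme-albumin 200, 14246 to 20322 CPM with IL-4, 12786 to 26103 CPM with IFN-γ and 32721 to 38163 CPM in controls. Lyz2 made up most of the macrophage marker sum in every library, so the sums follow mainly that gene. The other markers did not all move together. Unscaled counts of Fcgr1 were 10335 to 18622 under IFN-γ, but 109 to 258 under IL-4, against 1034 to 3134 in controls. Each treatment showed in a gene known to respond to it, chosen after its values were seen. Hmox1, which degrades heme, stood at 22416, 25568 and 22517 CPM with heme-albumin 400 and 25566, 28875 and 24867 CPM with heme-albumin 200, against 934, 622 and 1045 CPM in controls. Arg1, an arginase induced by IL-4, stood at 4027, 3649.7 and 2981 CPM with IL-4, against 2.30, 0.787 and 0.752 CPM in controls, and Irf1, a factor induced by IFN-γ, at 1114, 1416 and 1545 CPM with IFN-γ, against 49.3, 57.1 and 44.2 CPM in controls. Arg1 was also above the controls with IFN-γ, at 140, 83.3 and 35.7 CPM. CPM scales counts to a common library size, here with sizes adjusted by edgeR's TMM factors, and the values of a group are given in the order of its replicates 1, 2 and 3.

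The promoters of the members with the smallest p-values were read first, since S phase and mitosis genes are known to be controlled through different short elements. A window of 300 bases, 250 before to 50 after the gene start, was taken from RefSeq on GRCm38.p6 for 32 of the 40 members. Mcm4, Gins1, Gins2, Ccne2, Ccna2, Aurkb, Kif20a and Tpx2 had no entry. The windows were searched on both strands for E2F letters (TTCCCGC, and its variants with other centres, TTGGCGC, as well as TTCGCGC, and finally TTGCCGC), for the cell cycle homology region, CHR (TTTGAA, or with the other centre TTTAAA), and for the CCAAT box (CCAAT). Matches on the other strand appear as their reverse complement, and neighbouring matches of 1 element can overlap. The windows of Mcm6, Cdk1 and Mcm3 follow in the direction of the gene, each on the minus strand at chr1:128359656-128359955, chr10:69352863-69353162 and chr1:20820263-20820562, with the matched letters in capitals.
Mcm6: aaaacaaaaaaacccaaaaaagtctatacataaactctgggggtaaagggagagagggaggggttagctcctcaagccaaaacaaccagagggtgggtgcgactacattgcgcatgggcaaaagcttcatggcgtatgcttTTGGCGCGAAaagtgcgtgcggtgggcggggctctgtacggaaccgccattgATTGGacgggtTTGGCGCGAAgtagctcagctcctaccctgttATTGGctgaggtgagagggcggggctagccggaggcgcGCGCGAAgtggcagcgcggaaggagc
Cdk1: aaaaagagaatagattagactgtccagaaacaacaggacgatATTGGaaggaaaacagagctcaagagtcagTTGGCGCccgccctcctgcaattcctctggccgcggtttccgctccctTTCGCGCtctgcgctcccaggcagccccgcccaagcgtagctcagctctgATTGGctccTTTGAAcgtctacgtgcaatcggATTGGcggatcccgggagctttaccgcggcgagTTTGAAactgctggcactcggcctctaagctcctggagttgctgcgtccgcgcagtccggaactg
Mcm3: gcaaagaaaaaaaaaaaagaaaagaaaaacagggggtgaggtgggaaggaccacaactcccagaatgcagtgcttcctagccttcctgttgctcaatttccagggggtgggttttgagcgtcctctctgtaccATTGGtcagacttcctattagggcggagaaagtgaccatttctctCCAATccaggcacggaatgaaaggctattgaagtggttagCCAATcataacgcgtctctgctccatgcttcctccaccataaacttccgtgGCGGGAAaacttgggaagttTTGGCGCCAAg
The Mcm6 window held 5 E2F matches and 2 CCAAT matches, and the Mcm3 window 3 of each. The Cdk1 window held 2 E2F, 2 CHR and 3 CCAAT matches. The member with the smallest p, E2f1, is not printed, because its RefSeq start lies 466 bases inside the gene as GENCODE M21 draws it; its window held none of the letters.

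The shares of windows with each element were counted by phase. E2F letters were in 11 of 19 windows of S phase members (57.9%) and in 3 of 15 windows of mitosis members (20.0%), beside 9.57% of all 32851 windows in the table. CHR letters were in 14 of 15 mitosis windows (93.3%) and 7 of 19 S phase windows (36.8%), beside 27.6% of all windows. CCAAT was in 14 of 15 mitosis windows (93.3%) and 13 of 19 S phase windows (68.4%), beside 37.4% of all. Mcm7 and Uhrf1 each have 2 windows. Besides E2f1, some of the S phase windows start well inside the gene as GENCODE M21 draws it. The offsets were 539 and 1156 bases for Mcm7, 992 bases for 1 window of Uhrf1 and 350 bases for Cdc6. All of these windows, and that of E2f1, are in the S phase shares. The shares count matches of letters and no binding was measured.

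The summed level of the members was below the controls in every treated library. The 21 S phase members together took 2028, 1154 and 1721 CPM of plain library totals with heme-albumin 400, 2001, 1458 and 1710.2 with heme-albumin 200, 2229.9, 2122 and 1991 with IL-4, then 1856, 1148 and 411 with IFN-γ, against 2821, 2698 and 2615 in controls. The 19 mitosis members took 1689, 601 and 1218 CPM with heme-albumin 400, 1572, 948 and 1152 with heme-albumin 200, 1719, 1554 and 1284 with IL-4, then 1669.5, 719 and 145 with IFN-γ, against 2752, 2342 and 2213 in controls. None of the 12 treated libraries reached the lowest control in either sum. In bulk RNA, fewer dividing cells and less of these transcripts per dividing cell cannot be told apart.

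The groups differed in how closely their libraries agreed. The S phase sum averaged 1635 ± 443 CPM with heme-albumin 400, 1723 ± 272 with heme-albumin 200, 2114 ± 120 with IL-4 and 1138 ± 723 with IFN-γ, against 2712 ± 104 in controls (SD, n = 3 each). The mitosis sum averaged 1169 ± 546 CPM with heme-albumin 400, 1224 ± 318 with heme-albumin 200, 1519 ± 220.0 with IL-4 and 844 ± 770.1 with IFN-γ, against 2435 ± 281 in controls (SD, n = 3 each). IFN-γ library 3 and heme-albumin 400 library 2 stood lowest, with 555 and 1756 CPM for all 40 members, while IFN-γ library 1, at 3525 CPM, lay among the IL-4 libraries (3275 to 3949).

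**Figure D1:**
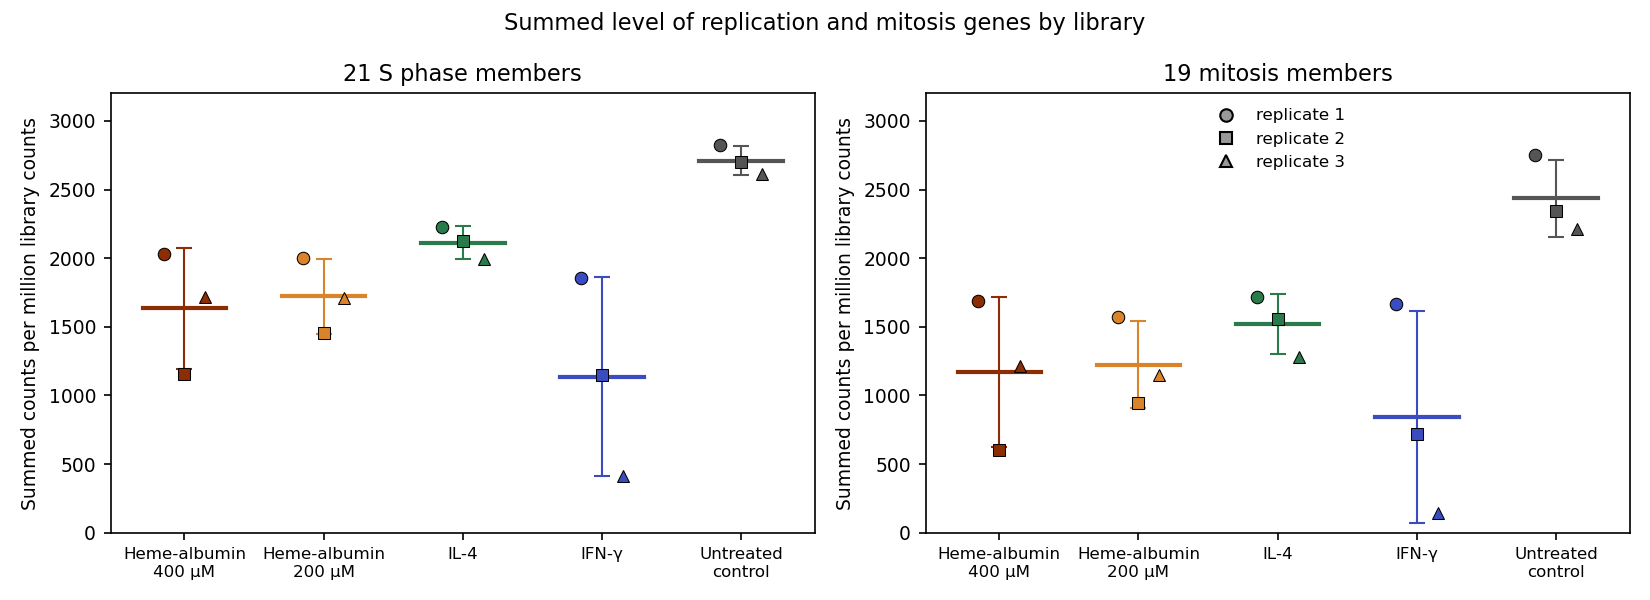
Summed level of the 21 S phase members (left) and the 19 mitosis members (right), in CPM of plain library totals, in each of 15 libraries, by group and replicate; horizontal lines are means and bars SD (n = 3). All 12 treated libraries lie below the 3 controls, and IFN-γ spreads widest, at 1669.5, 719 and 145 CPM for mitosis in libraries 1, 2 and 3.

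The mitosis sum was lower against the S phase sum than in all 3 controls in 11 of the 12 treated libraries. The ratio of the mitosis sum to the S phase sum was 0.833, 0.521 and 0.708 with heme-albumin 400, 0.786, 0.650 and 0.673 with heme-albumin 200, 0.771, 0.732 and 0.645 with IL-4, then 0.900, 0.626 and 0.352 with IFN-γ, against 0.975, 0.868 and 0.846 in controls. The exception was IFN-γ library 1, within the control range. Against the control of its own number, the ratio was lower in all 12. The ratio was smallest in the libraries with the smallest sums, IFN-γ 3 and heme-albumin 400 replicate 2. Pcna weighs on the S phase sum. On TMM-scaled sizes it made 493 of 1256 CPM in heme-albumin 400 replicate 2, against 392 of 2490 in control 2. The ratio without Pcna was not computed. Median log2 fold changes of S phase and mitosis members were close for heme-albumin, -0.81 beside -0.85 at 400 µM and -0.67 beside -0.71 at 200 µM. They were -1.34 beside -1.51 under IFN-γ, and -0.30 beside -0.61 under IL-4.

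Single genes showed the spread within each group. In IFN-γ library 3, all 40 members were at the lowest level of their group, 39 were the lowest of all 15 libraries, 35 were under a log2 ratio of -2 to the control mean, and 12 were under -4. In heme-albumin 400 library 2, 39 members were the lowest of their group, 36 were under -1 and 7 were under -2. IFN-γ library 2 stood close to it, with 36 under -1 and 4 under -2, and with 1867 CPM for all 40 members. The corresponding library of the lower dose, heme-albumin 200 replicate 2, was the lowest of its group for 35 members, with 20 under -1. The median coefficient of variation of the 40 members was 38.2% with heme-albumin 400 (14.8% for all tested genes), 20.8% with heme-albumin 200 (10.0%), 10.7% with IL-4 (8.21%) and 81.4% with IFN-γ (17.5%), against 7.28% in controls (8.87%).

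**Figure D2:**
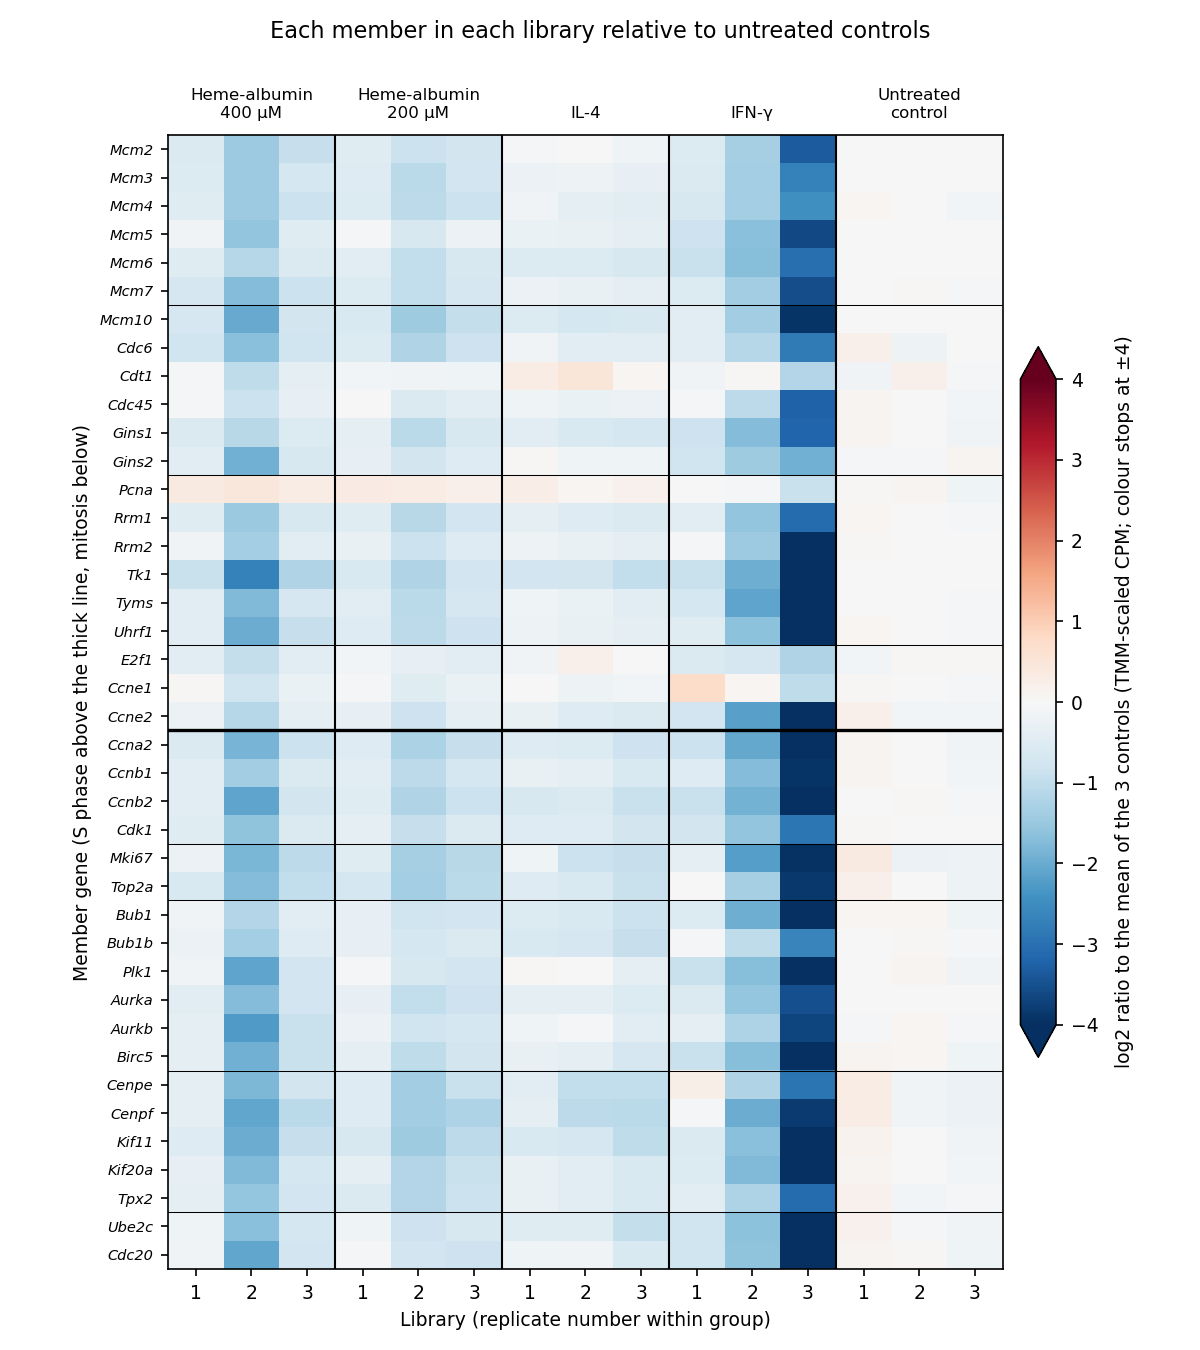
Log2 ratio of each of the 40 members in each of 15 libraries to the mean of the 3 controls, on TMM-scaled CPM; rows are genes grouped by role, columns are libraries, and colours stop at 4 on either side. IFN-γ library 3 is the darkest column, with 35 members under -2, and Pcna, Cdt1 and Ccne1 are the palest rows of the S phase block.

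The 3 IFN-γ libraries also differed in genes that respond to the cytokine. Nos2, the inducible nitric oxide synthase, stood at 143, 78.4 and 549.8 CPM with IFN-γ, against 0.128, 0.545 and 0.107 CPM in controls. Cxcl9, an IFN-γ-induced chemokine, stood at 93.5, 55.4 and 558 CPM with IFN-γ, against 0.384, 0.545 and 0.537 CPM in controls. Library 3, where the members were lowest, was the highest in both genes, which were chosen after their values were seen. Libraries 1 and 2 did not follow that order, since library 2 had lower values of both and lower member sums than library 1. The part of this difference in the results on the members was not tested.

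With IFN-γ, 27 of the 40 members fell. The falls took in all of Mcm2 to Mcm7, Gins1 and Gins2, E2f1, cyclin E2, and the mitotic cyclins with Cdk1. The called members were 14 of the 21 S phase genes and 13 of the 19 mitosis genes, and none rose (edgeR's quasi-likelihood test, Benjamini-Hochberg adjusted p under 0.05 over all 11883 genes). Of all genes tested, 19.5% were called lower. The median log2 fold change of the 40 was -1.41, beside 0.05 for all tested genes, with a range of -1.86 to 0.11. In 32 members the 3 IFN-γ values all lay below the 3 control values, which held for 24.5% of all tested genes. The 13 members not called were Mcm10, Cdt1, Cdc45, Pcna, Rrm2, Uhrf1, Ccne1, Mki67, Top2a, Bub1b, Aurkb, Cenpe and Cenpf.

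The count for IFN-γ changed with the libraries that entered the model. E2f1, Gins1, Gins2, Mcm4 and Mcm6 (5 members) were called lower in each of the 15 alternative settings run. The count was 10 without control 1 (14.8% of genes called lower), 13 without control 2 (15.2%), 16 without control 3 (15.7%) and 8 without IFN-γ library 2 (16.5%), and all of these were among the 27. It was 37 without IFN-γ library 1 (21%) and was 27, the same genes, without IFN-γ library 3 (17.1%). The median over members was -2.19 without library 1 and -0.97 without library 3. With only the 6 libraries compared, 5 members were called lower, beside 13.7% of genes tested in that fit. With the replicate number as a block, which sets each library beside those of its own date, 32 members were called lower (21.1% of genes), the 27 and also Mcm10, Uhrf1, Mki67, Aurkb and Cenpf.

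With heme-albumin 400, E2f1, a transcription factor of the S phase genes, fell, and no other member passed the test. Of all genes tested, 10.8% were called lower. The median log2 fold change of the 40 members was nonetheless -0.83, beside 0.01 for all tested genes, and 39 of 40 estimates were below 0. In 33 members all 3 treated values lay below all 3 controls, beside 22.4% of all tested genes, and in 1 member, Pcna, all 3 lay above, beside 23% of all tested genes. E2f1 lost its call without control 2 (adjusted p = 0.0698), control 3 (adjusted p = 0.0737) or heme-albumin 400 replicate 2 (adjusted p = 0.109). Without heme-albumin 400 replicate 1, 3 members were called, beside 10.2% of genes. The median over members was -0.56 without replicate 2. At 200 µM no member passed, with a median of -0.68 beside 0.02 for all tested genes; 1 member had an unadjusted p under 0.05, and DESeq2 called 1 member, Mcm4 (12.5% of genes called lower). All 3 treated values lay below all 3 controls in 35 members and above them in 1, beside 24.5% and 27.3% of all tested genes, and 9.48% of genes were called lower.

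The heme-albumin counts depended on whether the IFN-γ libraries entered the model, in which each gene has 1 spread for all libraries. With only the 6 libraries compared, 20 members were called lower and Pcna higher at 400 µM, beside 12.9% of genes called lower and 14.4% higher. At 200 µM the same kind of fit called 35 members lower and none higher, beside 19% and 20.4% of genes. A model of the 12 libraries without IFN-γ, added after seeing the data, called 29 members lower and Pcna higher at 400 µM and 24 lower at 200 µM, beside 17.4% and 17% of genes called lower. Leaving out just IFN-γ library 3 and heme-albumin 400 replicate 2, likewise added, gave 9 lower and 1 higher at 400 µM, beside 11.8% of genes called lower and 15.4% higher, and 25 lower and 1 higher at 200 µM, beside 16.3% and 20.6% of genes. The medians over members moved less between the first 2 of these settings, at -0.84 in both for 400 µM and at -0.70 in both for 200 µM. With the replicate number as a block, 3 members were called lower at 400 µM (12.7% of genes) and 1 at 200 µM, Mcm4 (11.4% of genes).

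Summed levels of markers of other cells differed between groups, mostly through 1 or 2 genes of a list. The summed level of 8 marrow progenitor markers, of which 2 passed the filter, was 11.3 to 30.3 CPM with heme-albumin 400 and 4.03 to 9.73 CPM with heme-albumin 200, 0.848 to 1.78 CPM with IL-4 and 1.69 to 7.21 CPM with IFN-γ, against 1.03 to 2.69 CPM in controls. With heme-albumin most of this was Cd34, with 166, 83 and 227 unscaled counts at 400 µM, against 27, 8 and 16 in controls, while Kit had 0 to 2 counts and Flt3 none in the heme-albumin libraries. Mpo had 54, 5 and 5 counts at 400 µM and 32, 10 and 2 at 200 µM, against 7, 0 and 0 in controls. Elane, Prtn3, Ctsg and Ms4a3 had up to 20 counts in a heme-albumin library, against at most 1 in a control. Of 7 stromal and endothelial markers, 3 passed, and the sum was 19.4 to 26.3 CPM with heme-albumin 400 and 22.0 to 32.1 CPM with heme-albumin 200, 6.94 to 11.3 CPM with IL-4 and 8.61 to 18.4 CPM with IFN-γ, against 3.01 to 4.54 CPM in controls. Acta2 was the most counted of these with heme-albumin, at 146 to 343 counts a library, and Pecam1 reached 327 counts with IFN-γ, while Col1a1 had at most 11, Col1a2 at most 16 and Pdgfra at most 1 in any library. The sum of 8 lymphoid markers, of which 1 passed and 2 were at 0 in every library, was 109.9 to 444 CPM with heme-albumin 400, 58.3 to 155 CPM with heme-albumin 200, 164 to 184 CPM with IL-4 and 66.5 to 208 CPM with IFN-γ, against 47.7 to 70.3 CPM in controls. It was highest in heme-albumin 400 replicate 2, heme-albumin 200 replicate 2 and IFN-γ library 3 within those groups, and nearly all of it was Il7r, with Cd3e and Ncr1 at 0 throughout. The sum of 6 neutrophil markers, of which 4 passed, was 43.2 to 79.3 CPM with heme-albumin 400, 34.0 to 60.8 CPM with heme-albumin 200, 27.1 to 53.1 CPM with IL-4 and 102 to 326 CPM with IFN-γ, against 26.7 to 44.7 CPM in controls. With IFN-γ most of it was Csf3r, at 1310, 2248 and 4099 counts, while Ly6g had at most 2 counts in any library. The sum of 8 erythroid markers, none past the filter and 3 at 0 throughout, was at most 1.20 CPM in any library. The part of these cells in the members' values was not tested.

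IL-4 left no member past the test, and its 3 libraries lay below the controls in the summed level of the members and above IFN-γ libraries 2 and 3. The median log2 fold change was -0.43, beside -0.00 for all tested genes, with -0.30 over the S phase members and -0.61 over the mitosis members. All 3 IL-4 values lay below all 3 controls in 30 members, beside 26.7% of all tested genes, and 12% of genes were called lower. No member had an unadjusted p under 0.05, and DESeq2 called none. With only the 6 libraries compared, 31 members were called lower (22% of genes), and the model without IFN-γ called 9 (17.5%).

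**Figure D3:**
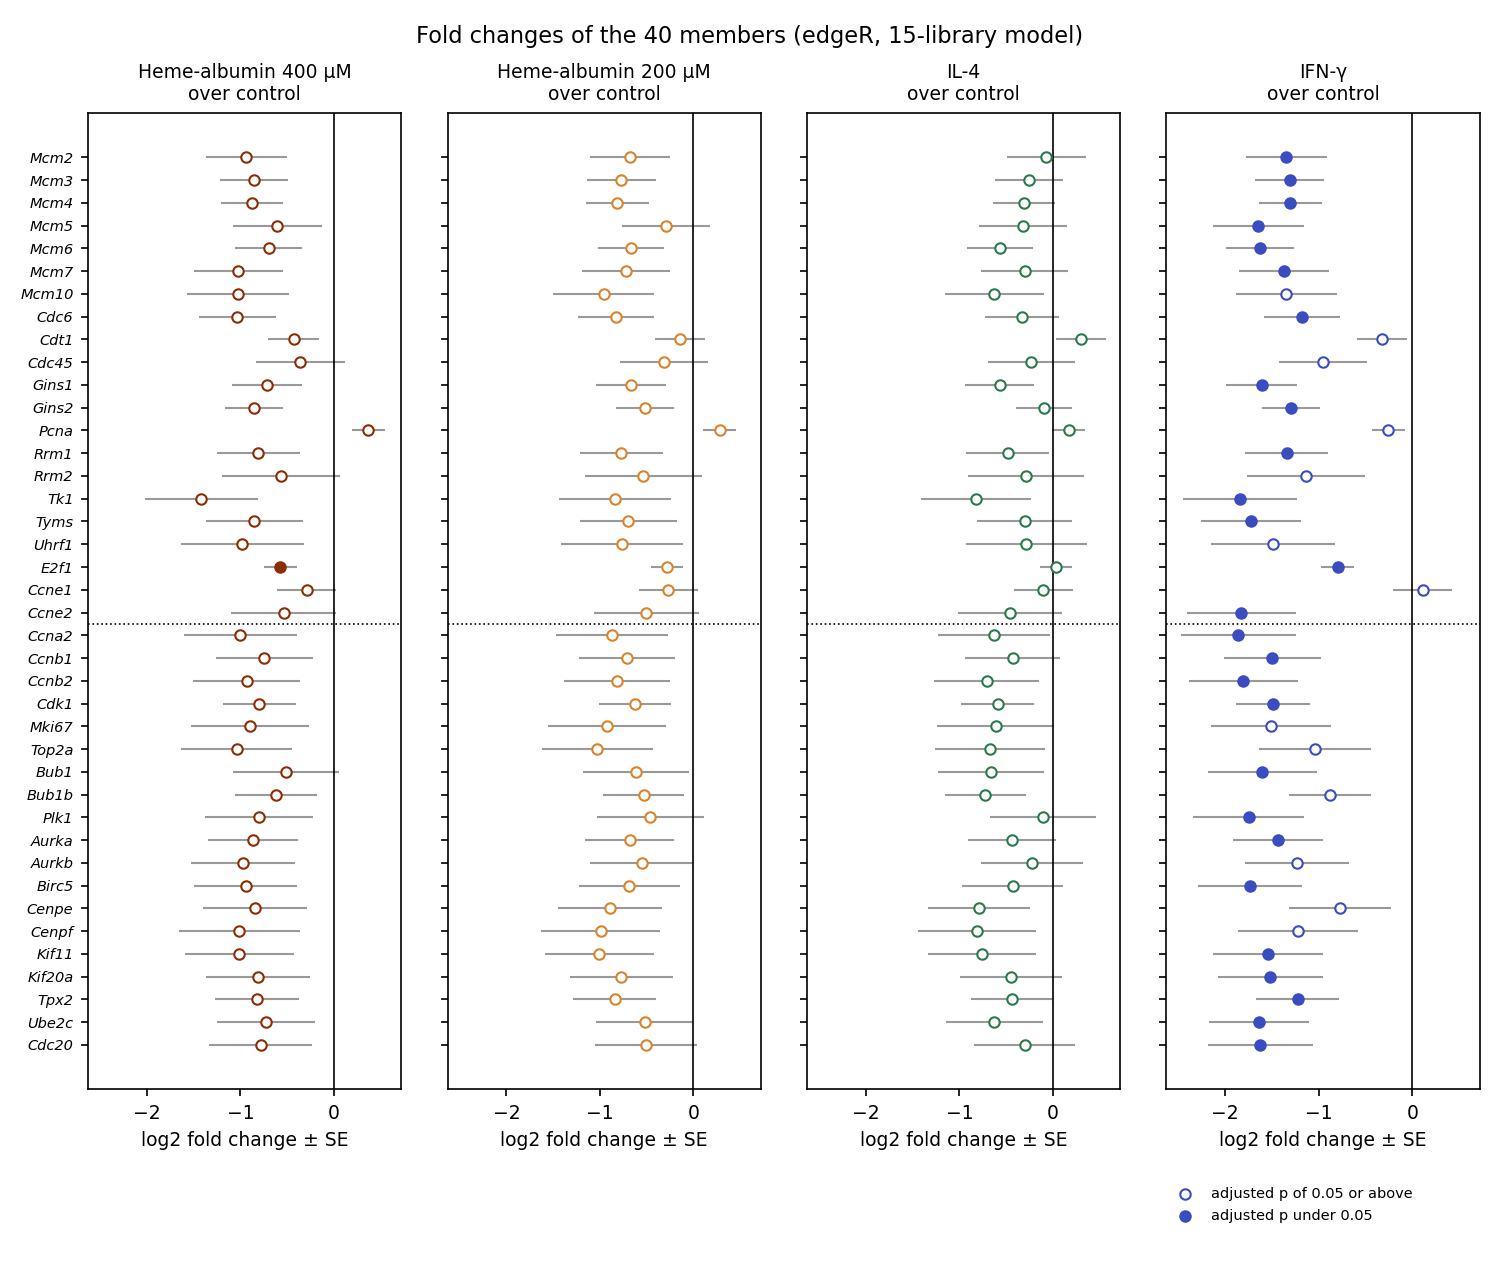
Log2 fold change with its SE for each of the 40 members in each treatment over control, from edgeR's model of all 15 libraries; filled points have an adjusted p under 0.05, and the dotted line parts S phase members (above) from mitosis members (below). Filled points are 1 with heme-albumin 400, none with heme-albumin 200 or IL-4, and 27 with IFN-γ.

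The 4 treatments share the 3 control libraries, so their fold changes are not independent of each other. Set directly against 200 µM, heme-albumin at 400 µM changed no member, with a median log2 difference of -0.09 and a range of -0.58 to 0.10. The median was 0.14 without heme-albumin 400 replicate 2 and 0.07 without heme-albumin 200 replicate 1. No gene of the 11883 tested passed (0%), 1796 of them had an unadjusted p under 0.05, no member had an unadjusted p under 0.05, and the groups overlapped for every member. DESeq2 called no member, beside 0.107% of genes lower and 0.0321% higher. Set directly against IFN-γ, IL-4 left 10 members higher, namely Mcm2 to Mcm6, Gins1, Gins2, Tyms, E2f1 and Plk1. Of all genes tested, 24.3% were called higher, so 10 of 40 members was about the share of genes in general. The median over members was 1.01, beside -0.01 for all tested genes. All 3 IL-4 values lay above all 3 IFN-γ values in 21 members, beside 29% of all tested genes.

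Of the 10, E2f1 and Gins2 kept the call in every alternative run. The count was 2 without IL-4 replicate 1 (20.5% of genes called higher), 3 without IL-4 replicate 2 (20.6%) and 6 without IL-4 replicate 3 (20%). It was 36 without IFN-γ library 1 (25.9%) and 4 without IFN-γ library 2 (22.6%). Without IFN-γ library 3, 10 members were higher (22.9%) and 1 was lower (24.6%). The median over members was 1.74 without IFN-γ library 1 and 0.54 without library 3. The replicate block gave 24 (26.1% of genes), adding Mcm7, Cdc6, Cdt1, Pcna, Ccne2, Cdk1, Ccna2, Ccnb1, Mki67, Aurka, Birc5, Cdc20, Ube2c and Kif20a with adjusted p of 0.0215 to 0.0498, and only the 6 libraries compared gave 2 (19.3%).

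The Mcm2 to Mcm7 genes encode the 6 subunits of the ring helicase that opens DNA at the fork. All 6 fell with IFN-γ, by a median of 1.36 on the log2 scale. Mcm6 (ENSMUSG00000026355, chromosome 1, 128331590 to 128359664, minus strand) stood at 186, 118 and 173 CPM with heme-albumin 400, 189, 132 and 166 CPM with heme-albumin 200, 177, 178 and 166 CPM with IL-4, 139, 79.4 and 31.7 CPM with IFN-γ, and 258, 263 and 253 CPM in controls. All 12 treated values lay below the 3 controls, and the log2 fold change with IFN-γ was -1.63 ± 0.36 (adjusted p = 0.00284). None of the other estimates passed, which were -0.70 ± 0.35 for heme-albumin 400, -0.67 ± 0.35 for heme-albumin 200 and -0.57 ± 0.35 for IL-4.

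Mcm4 (ENSMUSG00000022673, chromosome 16, 15623897 to 15637400, minus strand) stood at 89.9, 46.9 and 70.6 CPM with heme-albumin 400, 86.6, 60.8 and 69.5 CPM with heme-albumin 200, 114, 99.7 and 93.7 CPM with IL-4, 81.7, 49.0 and 23.1 CPM with IFN-γ, and 135, 129 and 117 CPM in controls. It fell by 1.31 on the log2 scale with IFN-γ (SE 0.34, adjusted p = 0.00724). Every treated value was below the lowest control, and the estimate was -0.88 ± 0.34 with heme-albumin 400 (adjusted p = 0.0712) and -0.81 ± 0.33 with heme-albumin 200 (adjusted p = 0.0965). With the replicate block, Mcm4 was called lower at both doses, with an adjusted p of 0.0285 at 400 µM and 0.0419 at 200 µM. Mcm2 stood at 69.4, 38.5 and 55.6 CPM with heme-albumin 400, 74.8, 58.0 and 63.3 CPM with heme-albumin 200, 101, 104 and 93.6 CPM with IL-4, 70.9, 41.6 and 10.5 CPM with IFN-γ, and 106, 102 and 105 CPM in controls. Its IL-4 values reached the range of the controls, with a log2 fold change of -0.07 ± 0.42, while IFN-γ gave -1.35 ± 0.43 (adjusted p = 0.0231). Mcm3 (ENSMUSG00000041859, chromosome 1, 20802968 to 20820312, minus strand) stood at 123, 72.6 and 28.4 CPM with IFN-γ, against 188, 185 and 182 CPM in controls, Mcm5 at 104, 57.3 and 15.2 CPM with IFN-γ, against 186, 184 and 183 CPM in controls, and Mcm7 at 88.7, 48.6 and 11.1 CPM with IFN-γ, against 127, 134 and 124 CPM in controls. Each of these had IFN-γ values wholly below the controls. Mcm5 had the estimates nearest 0 of the 6 with heme-albumin, -0.61 ± 0.47 at 400 µM and -0.30 ± 0.47 at 200 µM. Exons of Mcm7 overlap Cops6 and Ap4m1 on the opposite strand, and since the strand setting of the counting was not given, reads of such neighbours cannot be told apart.

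Among the genes that license and fire origins, Cdc6, Gins1 and Gins2 fell with IFN-γ, and Mcm10, Cdt1 and Cdc45 did not pass. Gins1 and Gins2 are subunits of the GINS complex, which completes the active helicase. Gins2 (ENSMUSG00000031821, chromosome 8, 120578633 to 120589304, minus strand) stood at 28.6, 10.1 and 24.7 CPM with heme-albumin 400, 30.5, 23.0 and 26.8 CPM with heme-albumin 200, 39.4, 34.2 and 34.5 CPM with IL-4, 22.3, 14.5 and 10.1 CPM with IFN-γ, and 37.0, 36.6 and 41.6 CPM in controls. The IFN-γ log2 fold change was -1.29 ± 0.31 (adjusted p = 0.00460), and IL-4 lay above IFN-γ by 1.20 ± 0.31 (adjusted p = 0.00527). The exons of Gins2 share 2758 bases with Gse1 on the opposite strand, so its counts are uncertain. Gins1 stood at 12.6, 6.81 and 2.48 CPM with IFN-γ, against 24.4, 22.3 and 20.5 CPM in controls, with a log2 fold change of -1.61 ± 0.38 (adjusted p = 0.00432) and no overlap. With heme-albumin 400 the replicate block called Gins2 lower (adjusted p = 0.0270). The other GINS subunits, Gins3 and Gins4, are not among the 40 and fell with IFN-γ, with log2 fold changes of -0.96 ± 0.22 (adjusted p = 0.00313) and -0.50 ± 0.10 (adjusted p = 0.00164).

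Cdc6, which loads the helicase with Cdt1, stood at 19.2, 10.6 and 19.3 CPM with heme-albumin 400, 23.2, 14.7 and 18.8 CPM with heme-albumin 200, 30.5, 24.9 and 25.0 CPM with IL-4, 24.6, 15.1 and 4.68 CPM with IFN-γ, and 38.5, 29.3 and 33.0 CPM in controls. IFN-γ gave -1.18 ± 0.40 (adjusted p = 0.0307), and heme-albumin 400 -1.03 ± 0.41 (adjusted p = 0.0807). Its partner Cdt1 stood at 46.9, 24.0 and 36.8 CPM with heme-albumin 400, 44.7, 44.1 and 42.5 CPM with heme-albumin 200, 59.7, 68.4 and 51.0 CPM with IL-4, 44.0, 50.4 and 21.5 CPM with IFN-γ, and 44.1, 55.2 and 45.8 CPM in controls. The Cdt1 values of all 4 treatments overlapped the controls, and its IFN-γ estimate was -0.32 ± 0.27 (adjusted p = 0.350). Cdc45, a helicase subunit, stood at 31.3, 15.7 and 3.44 CPM with IFN-γ, against 35.1, 32.7 and 30.2 CPM in controls, and Mcm10, which helps activate the helicase, at 39.5, 20.6 and 3.58 CPM with IFN-γ, against 54.5, 53.9 and 54.2 CPM in controls. In both genes IFN-γ library 1 was near or above most of the values under the other treatments, library 3 was the lowest of all 15, and the test was not passed (adjusted p = 0.118 for Cdc45 and 0.0582 for Mcm10). With the replicate block Mcm10 was called lower (adjusted p = 0.0359).

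Of the genes for nucleotide supply and the fork, Rrm1, Tk1 and Tyms fell with IFN-γ. Tk1, thymidine kinase, stood at 55.0, 15.7 and 44.3 CPM with heme-albumin 400, 67.8, 44.4 and 60.2 CPM with heme-albumin 200, 60.4, 62.5 and 52.0 CPM with IL-4, 55.8, 26.3 and 3.79 CPM with IFN-γ, and 102, 102 and 105 CPM in controls. All 12 treated values lay below the controls, and the log2 fold change was -1.84 ± 0.61 with IFN-γ (adjusted p = 0.0262) and -1.42 ± 0.61 with heme-albumin 400 (adjusted p = 0.104). That second value was the lowest estimate of any member with heme-albumin 400. Tyms, thymidylate synthase, stood at 30.3, 12.1 and 25.6 CPM with heme-albumin 400, 30.8, 19.3 and 25.9 CPM with heme-albumin 200, 36.2, 34.2 and 29.7 CPM with IL-4, 25.1, 9.57 and 2.41 CPM with IFN-γ, and 41.6, 41.6 and 39.9 CPM in controls, with -1.72 ± 0.53 for IFN-γ (adjusted p = 0.0185).

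Of the subunits of ribonucleotide reductase, which makes deoxynucleotides, Rrm1 passed and Rrm2 did not. Rrm2 stood at 159.7, 68.6 and 132 CPM with heme-albumin 400, 145, 97.7 and 125 CPM with heme-albumin 200, 153, 145 and 138 CPM with IL-4, 169, 65.4 and 8.47 CPM with IFN-γ, and 183, 176 and 174 CPM in controls. All 3 IFN-γ values lay below the controls, but they spread from 169 to 8.47 CPM, and the estimate of -1.13 ± 0.63 did not pass (adjusted p = 0.161). Rrm1 stood at 188, 85.7 and 30.8 CPM with IFN-γ, against 272, 257 and 245 CPM in controls, with -1.34 ± 0.45 (adjusted p = 0.0267). Uhrf1, which guides maintenance methylation behind the fork, stood at 99.6, 34.1 and 72.1 CPM with heme-albumin 400, 95.5, 65.8 and 77.0 CPM with heme-albumin 200, 118, 109.6 and 106 CPM with IL-4, 97.2, 43.3 and 3.99 CPM with IFN-γ, and 142, 133 and 131 CPM in controls. Its IFN-γ libraries spread as widely, and it did not pass (adjusted p = 0.0839), while the replicate block gave an adjusted p of 0.0454.

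Pcna, the sliding clamp of the polymerases, was the member whose heme-albumin values lay above the controls. Pcna (ENSMUSG00000027342, chromosome 2, 132249162 to 132253314, minus strand) stood at 465, 493 and 449 CPM with heme-albumin 400, 459, 449 and 417 CPM with heme-albumin 200, 435, 385 and 406 CPM with IL-4, 365, 352 and 197 CPM with IFN-γ, and 376, 392 and 323 CPM in controls. All 6 heme-albumin values exceeded the highest control, with log2 fold changes of 0.37 ± 0.18 at 400 µM (adjusted p = 0.150) and 0.28 ± 0.18 at 200 µM (adjusted p = 0.278), neither past the test. In the fit of only the 6 libraries compared, the adjusted p at 400 µM was 0.0445, and in the model without IFN-γ it was 0.0109. The IFN-γ estimate was -0.26 ± 0.18, with libraries 1 and 2 inside the control range and library 3 below it.

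E2f1 was the one member called in 3 comparisons. E2f1 (ENSMUSG00000027490, chromosome 2, 154559407 to 154569892, minus strand) stood at 58.9, 40.5 and 59.6 CPM with heme-albumin 400, 73.1, 62.3 and 59.2 CPM with heme-albumin 200, 71.7, 91.1 and 79.8 CPM with IL-4, 52.4, 49.8 and 34.0 CPM with IFN-γ, and 73.8, 81.4 and 81.8 CPM in controls. Both heme-albumin doses and IFN-γ lay wholly below the controls, and heme-albumin 400 and IFN-γ passed, at -0.57 ± 0.17 (adjusted p = 0.0279) and -0.80 ± 0.17 (adjusted p = 0.00252), while IL-4 overlapped them at 0.03 ± 0.17. Its values spread less between IFN-γ libraries than those of the other S phase genes, with a coefficient of variation of 21.9%, the smallest of the 40 members in that group. IL-4 exceeded IFN-γ by 0.83 ± 0.17 (adjusted p = 0.00131).

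The cyclin E genes, whose kinase starts S phase, parted. Ccne2 stood at 43.7, 23.6 and 39.6 CPM with heme-albumin 400, 40.9, 28.9 and 39.7 CPM with heme-albumin 200, 42.3, 36.0 and 34.8 CPM with IL-4, 30.4, 11.5 and 1.65 CPM with IFN-γ, and 59.3, 48.2 and 47.7 CPM in controls, and fell with IFN-γ by 1.83 on the log2 scale (SE 0.58, adjusted p = 0.0214). Ccne1 (ENSMUSG00000002068, chromosome 7, 38097984 to 38107534, minus strand) stood at 32.7, 18.2 and 26.5 CPM with heme-albumin 400, 29.7, 22.8 and 26.3 CPM with heme-albumin 200, 32.3, 27.3 and 29.1 CPM with IL-4, 53.1, 33.7 and 15.6 CPM with IFN-γ, and 32.5, 32.1 and 30.4 CPM in controls. IFN-γ library 1 had the highest Ccne1 of all 15 libraries and library 3 the lowest, and the estimate of 0.11 ± 0.31 was the only one above 0 among the 40 in that comparison; it turned to -0.35 without library 1. The difference between Ccne1 and Ccne2 was not tested. Ccne2 overlaps Ints8 on the opposite strand.

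Of the mitosis genes, the cyclins and their kinase, 4 in all, fell with IFN-γ, with a median of -1.65. Cdk1 (ENSMUSG00000019942, chromosome 10, 69335146 to 69352938, minus strand), the kinase that starts mitosis, stood at 113, 51.4 and 105 CPM with heme-albumin 400, 119, 81.7 and 104 CPM with heme-albumin 200, 109, 108 and 94.0 CPM with IL-4, 93.2, 52.1 and 21.1 CPM with IFN-γ, and 162, 154 and 153 CPM in controls. All 12 treated values lay below the controls, and IFN-γ gave -1.49 ± 0.39 (adjusted p = 0.00834). Ccna2, cyclin A2, stood at 124, 50.6 and 102 CPM with heme-albumin 400, 129, 77.0 and 96.6 CPM with heme-albumin 200, 128, 125 and 104 CPM with IL-4, 102, 44.3 and 6.20 CPM with IFN-γ, and 200.0, 186 and 168 CPM in controls. Its estimate with IFN-γ, -1.86 ± 0.62, was the lowest of the 40 (adjusted p = 0.0265). Ccnb1 and Ccnb2 encode the B cyclins of Cdk1. Ccnb1 stood at 63.0, 32.0 and 56.2 CPM with heme-albumin 400, 62.3, 40.6 and 51.9 CPM with heme-albumin 200, 69.3, 63.9 and 55.5 CPM with IL-4, 58.6, 25.6 and 5.58 CPM with IFN-γ, and 91.2, 83.5 and 79.0 CPM in controls, and Ccnb2 at 52.0, 26.0 and 4.20 CPM with IFN-γ, against 94.8, 100.3 and 93.5 CPM in controls. Both fell with IFN-γ, with log2 fold changes of -1.50 ± 0.52 (adjusted p = 0.0327) and -1.81 ± 0.58 (adjusted p = 0.0232).

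The usual markers of dividing cells, Mki67 and Top2a, did not pass in any comparison of the model of all 15 libraries without the block. Mki67, whose protein coats mitotic chromosomes, stood at 243, 79.9 and 137 CPM with heme-albumin 400, 204, 115 and 132 CPM with heme-albumin 200, 254, 157 and 150.3 CPM with IL-4, 219.5, 62.3 and 18.7 CPM with IFN-γ, and 368, 242 and 249 CPM in controls. Top2a, the topoisomerase that untangles sister chromatids, stood at 235, 108 and 180.5 CPM with heme-albumin 400, 218, 139.9 and 169.6 CPM with heme-albumin 200, 249, 235 and 192 CPM with IL-4, 356, 142 and 24.5 CPM with IFN-γ, and 408, 358 and 309 CPM in controls. In both genes the 3 controls themselves spread widely, and IFN-γ library 1 lay close to the controls while library 3 was the lowest of all 15. The IFN-γ estimates were -1.51 ± 0.64 for Mki67 (adjusted p = 0.0704) and -1.04 ± 0.59 for Top2a (adjusted p = 0.172), and those for heme-albumin 400 were -0.90 and -1.04. With the replicate block, Mki67 was called lower with IFN-γ (adjusted p = 0.00680) and higher with IL-4 than with IFN-γ (adjusted p = 0.0391), and Top2a was called in neither. With only the 6 libraries compared, Top2a was called lower with both heme-albumin doses and IL-4, and Mki67 with heme-albumin 200 and IL-4. The model without IFN-γ libraries called Top2a, but not Mki67, lower with both doses and IL-4. Without IFN-γ library 1, both genes were called lower with IFN-γ.

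Of the 6 mitotic kinases and checkpoint genes, 4 fell with IFN-γ. Plk1, the Polo kinase, stood at 54.1, 13.8 and 35.4 CPM with heme-albumin 400, 56.4, 38.5 and 35.7 CPM with heme-albumin 200, 61.5, 60.4 and 45.9 CPM with IL-4, 32.2, 18.5 and 2.55 CPM with IFN-γ, and 60.7, 64.6 and 54.9 CPM in controls. IL-4 overlapped the controls, and Plk1 was the one mitosis member called higher with IL-4 than with IFN-γ, by 1.65 ± 0.59 (adjusted p = 0.0317); over control, IFN-γ gave -1.75 ± 0.59 (adjusted p = 0.0287). Birc5, survivin, stood at 65.4, 22.7 and 46.7 CPM with heme-albumin 400, 67.2, 42.7 and 51.6 CPM with heme-albumin 200, 70.6, 67.9 and 54.2 CPM with IL-4, 46.9, 26.6 and 4.13 CPM with IFN-γ, and 92.4, 90.8 and 76.2 CPM in controls. It is a partner of Aurkb in the chromosomal passenger complex and fell with IFN-γ by 1.73 on the log2 scale (adjusted p = 0.0228), while Aurkb itself stood at 56.1, 15.1 and 39.0 CPM with heme-albumin 400, 61.6, 41.7 and 44.5 CPM with heme-albumin 200, 64.0, 68.0 and 54.2 CPM with IL-4, 56.1, 30.5 and 5.65 CPM with IFN-γ, and 70.8, 76.2 and 70.2 CPM in controls, and did not pass (adjusted p = 0.0880; 0.0446 with the replicate block). Aurka, the Aurora kinase of the spindle poles, stood at 36.1, 18.6 and 4.68 CPM with IFN-γ, against 54.7, 53.1 and 53.5 CPM in controls, with -1.44 ± 0.48 (adjusted p = 0.0280). The spindle checkpoint kinase Bub1 stood at 50.0, 18.9 and 3.10 CPM with IFN-γ, against 76.9, 76.8 and 65.5 CPM in controls, with -1.60 ± 0.58 (adjusted p = 0.0382), and its relative Bub1b at 90.6, 45.9 and 14.8 CPM with IFN-γ, against 93.4, 95.4 and 89.8 CPM in controls, with -0.88 ± 0.44 and no call (adjusted p = 0.119). In Bub1 all 3 IFN-γ values were below the controls, and Bub1b of IFN-γ library 1 was inside their range.

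At the kinetochore and spindle, Kif11, Kif20a and Tpx2 fell with IFN-γ, and the kinetochore proteins Cenpe and Cenpf did not pass. Cenpf stood at 28.9, 8.87 and 17.9 CPM with heme-albumin 400, 26.3, 14.2 and 15.8 CPM with heme-albumin 200, 28.5, 18.1 and 17.8 CPM with IL-4, 36.2, 9.43 and 2.62 CPM with IFN-γ, and 46.4, 34.2 and 31.8 CPM in controls, with an IFN-γ estimate of -1.22 ± 0.64 (adjusted p = 0.136; 0.0187 with the replicate block). IFN-γ library 1 exceeded 2 of the 3 controls, and library 3 was the lowest of all. Cenpe, a kinesin of the kinetochore, stood at 72.5, 26.3 and 8.06 CPM with IFN-γ, against 75.6, 55.8 and 51.5 CPM in controls, with -0.78 ± 0.55 and the same order of libraries. Kif20a, a kinesin of cytokinesis, stood at 77.0, 28.4 and 60.4 CPM with heme-albumin 400, 74.9, 43.3 and 53.1 CPM with heme-albumin 200, 80.0, 70.7 and 63.7 CPM with IL-4, 67.3, 28.5 and 6.06 CPM with IFN-γ, and 106, 96.8 and 89.9 CPM in controls, with -1.52 ± 0.56 for IFN-γ (adjusted p = 0.0422). Kif11, the motor that pushes spindle poles apart, stood at 77.1, 36.7 and 5.78 CPM with IFN-γ, against 128, 115 and 105 CPM in controls, and Tpx2, which nucleates spindle microtubules, at 97.3, 56.7 and 15.8 CPM with IFN-γ, against 151, 122 and 125 CPM in controls. Their log2 fold changes were -1.54 ± 0.59 (adjusted p = 0.0481) and -1.23 ± 0.45 (adjusted p = 0.0398).

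Both members of the anaphase-promoting machinery fell with IFN-γ. Cdc20, its activator, stood at 56.0, 14.4 and 36.1 CPM with heme-albumin 400, 58.0, 36.3 and 34.8 CPM with heme-albumin 200, 53.8, 55.2 and 40.3 CPM with IL-4, 35.4, 20.0 and 3.86 CPM with IFN-γ, and 65.7, 63.4 and 54.4 CPM in controls. Ube2c, the ubiquitin-conjugating enzyme that works with it, stood at 84.4, 30.0 and 59.2 CPM with heme-albumin 400, 85.2, 53.4 and 61.3 CPM with heme-albumin 200, 68.8, 68.4 and 49.3 CPM with IL-4, 55.6, 30.4 and 6.06 CPM with IFN-γ, and 108, 93.2 and 86.0 CPM in controls. The log2 fold changes were -1.63 ± 0.56 for Cdc20 (adjusted p = 0.0312) and -1.64 ± 0.53 for Ube2c (adjusted p = 0.0247). Heme-albumin library 1 of either dose lay near the lowest control in both genes, and heme-albumin 400 replicate 2 was the lowest of the heme libraries. Cdc20, Ube2c, Kif20a, Plk1, Ccna2, Tk1, Cdc45 and Top2a share some exon bases with other annotated genes, so the same limit holds for them as for Mcm7, Gins2 and Ccne2, 11 members in all.

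Per kilobase of exon, the level of a member in untreated cells ranged over more than an order of magnitude. Pcna had the highest control level, 152 ± 15.2 CPM per kb, followed by Rrm2 at 64.1 ± 1.81, Ccnb2 at 62.8 ± 2.36 and Mcm6 at 55.3 ± 1.08 CPM per kb (SD, n = 3 each). Rrm2 and Ccnb2 did not differ beyond their spread. Cdc6 at 6.43 ± 0.888 and Cenpf at 2.43 ± 0.506 CPM per kb were the lowest. With IFN-γ, Pcna was again the highest at 127 ± 38.9 CPM per kb and Cenpf the lowest at 1.04 ± 1.15, where the SD exceeds the mean.

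The columns of the count table carry 3 dates, each with 1 library of every group, so each treated library was also set against the control of its own number. The median log2 ratio of the 40 members to that control was -0.48, -1.59 and -0.64 with heme-albumin 400, -0.47, -1.01 and -0.64 with heme-albumin 200, -0.40, -0.38 and -0.49 with IL-4, and finally -0.63, -1.57 and -3.59 under IFN-γ. At least 36 of 40 members were below their own control in each of the 12 treated libraries. In replicate 1 the medians of the 4 treatments lay between -0.63 and -0.40, and in replicate 3 IFN-γ stood apart from the other 3.

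**Figure D4:**
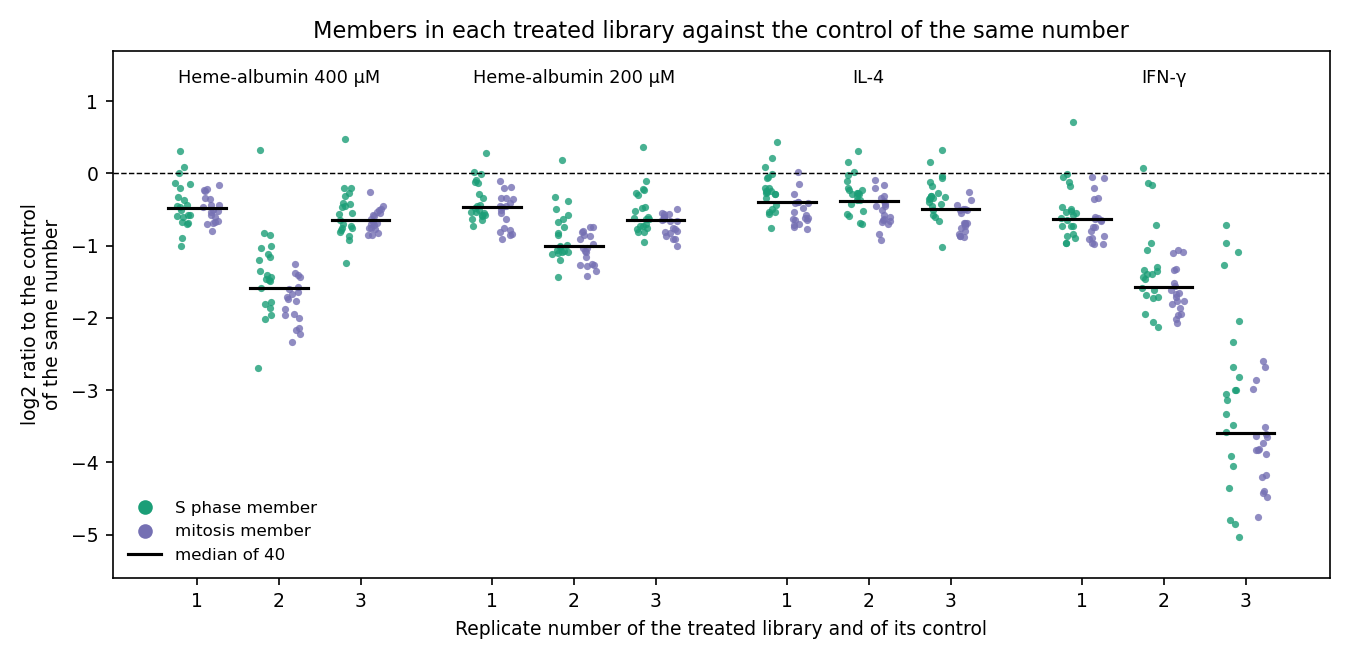
Log2 ratio of each member in each treated library to the control of the same replicate number, on TMM-scaled CPM; points are the 21 S phase and 19 mitosis members and bars the median of the 40. Medians lie between -0.63 and -0.40 in replicate 1 of all 4 treatments and spread to -1.59 with heme-albumin 400 replicate 2 and -3.59 with IFN-γ library 3.

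Other genes of the same pathways were also lower with IFN-γ by their counts. Of 42 further replication genes, 25 fell and none rose with IFN-γ, with a median log2 fold change of -0.89. Among them were Gmnn, the geminin that restrains Cdt1, at -0.98 ± 0.20 (adjusted p = 0.00155), and Orc6 of the origin recognition complex at -1.30 ± 0.29 (adjusted p = 0.00289). Of 45 further mitosis genes, 36 fell and none rose with IFN-γ, with a median of -1.39. Cdc25b, the phosphatase that activates Cdk1, was at -1.70 ± 0.34 (adjusted p = 0.00155), and Ckap2, a spindle protein, at -1.96 ± 0.45 (adjusted p = 0.00354). Of all tested genes, 19.5% were called lower. The replication count was 16 without control 1 or control 2, and the mitosis count was 12 without control 1, 14 without control 2 and 13 without IFN-γ library 2, settings in which 14.8%, 15.2% and 16.5% of all genes were called lower.

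With heme-albumin, 10 of the 42 replication genes fell at 400 µM (10.8% of all genes) and 5 at 200 µM (9.48%), with medians of -0.64 and -0.58, and none rose. The count at 200 µM was near the share of all genes. The count at 400 µM was 4 to 6 without control 1, 2 or 3 or heme-albumin 400 replicate 2 or 3. These settings called 2165 to 2473 of all genes in either direction, against 3023 as reported. Pold3, a subunit of polymerase delta, stood at 36.3, 39.2 and 42.6 CPM with heme-albumin 400, 44.6, 40.5 and 38.3 CPM with heme-albumin 200, 42.8, 48.3 and 45.6 CPM with IL-4, 49.6, 43.8 and 50.5 CPM with IFN-γ, and 66.4, 62.1 and 62.0 CPM in controls. It fell at 400 µM (-0.69 ± 0.09, adjusted p = 1.59e-04), at 200 µM (-0.63 ± 0.09, adjusted p = 3.59e-04) and with IL-4 (-0.48 ± 0.09, adjusted p = 0.00176). All 3 of its IFN-γ values also lay below the 3 controls. Its libraries agreed closely within each group. Dck, the kinase of deoxycytidine salvage, stood at 115, 131 and 119 CPM with heme-albumin 400, 97.7, 109 and 92.7 CPM with heme-albumin 200, 106, 127 and 112 CPM with IL-4, 252, 213 and 187 CPM with IFN-γ, and 189, 224 and 171 CPM in controls. It fell at 400 µM (-0.68 ± 0.13, adjusted p = 0.00187), at 200 µM (-0.96 ± 0.13, adjusted p = 1.58e-04) and with IL-4 (-0.76 ± 0.13, adjusted p = 6.55e-04), but its IFN-γ values overlapped the controls (0.16 ± 0.13).

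Rfc2, of the clamp loader for Pcna, fell at 400 µM (-0.59 ± 0.10, adjusted p = 7.27e-04) and at 200 µM (-0.57 ± 0.10, adjusted p = 9.23e-04). In the mitosis list, 2 of 45 genes fell at 400 µM (Incenp and Smc4) and 1 at 200 µM (Smc4), with medians of -0.77 and -0.70. Both counts lay under the shares of all genes called lower, 10.8% and 9.48%. All 3 of these calls were lost without any 1 of the 3 controls, and without replicate 2 or 3 of the heme-albumin dose. With IL-4, 5 of the 42 replication genes and 1 of the 45 mitosis genes fell. Of all genes, 12% were called lower, which is close to the replication share and above the mitosis share. The replication count was 2 or 3 without control 2 or any 1 of the IL-4 libraries. Those settings called 2318 to 2488 of all genes in either direction, against 3190 as reported. The mitosis gene was Pttg1, securin, at -0.82 ± 0.15 (adjusted p = 0.00124). Dut, the dUTPase, stood at 25.8, 19.2 and 19.5 CPM with heme-albumin 400, 26.7, 16.0 and 22.3 CPM with heme-albumin 200, 54.8, 46.6 and 53.6 CPM with IL-4, 18.1, 13.2 and 2.55 CPM with IFN-γ, and 28.3, 27.8 and 30.3 CPM in controls. It was higher with IL-4 than with IFN-γ by 2.18 ± 0.43 (adjusted p = 8.31e-04).

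Of 28 regulators of the cycle, 4 fell and 2 rose with heme-albumin 400, 3 fell and 4 rose with heme-albumin 200, 3 fell with IL-4, and 10 fell and 1 rose with IFN-γ. Of all genes tested, 10.8% were called lower and 14.7% higher with heme-albumin 400, 9.48% and 14% with heme-albumin 200. The shares were 12% lower and 14.9% higher with IL-4, and 19.5% lower and 24.1% higher for IFN-γ. Cdkn2b, the Cdk4 inhibitor p15, stood at 5.91, 7.43 and 7.86 CPM with heme-albumin 400, 6.37, 7.94 and 7.43 CPM with heme-albumin 200, 2.14, 2.81 and 3.23 CPM with IL-4, 0.703, 0.623 and 1.03 CPM with IFN-γ, and 2.69, 1.39 and 2.90 CPM in controls. It rose with heme-albumin by 1.63 ± 0.27 at 400 µM (adjusted p = 7.85e-04) and 1.66 ± 0.27 at 200 µM (adjusted p = 7.09e-04), and fell with IFN-γ (-1.56 ± 0.31, adjusted p = 0.00140). Its levels were low in every group. Cdkn1b, the inhibitor p27, stood at 28.0, 26.9 and 25.3 CPM with heme-albumin 400, 27.7, 26.8 and 27.1 CPM with heme-albumin 200, 26.6, 34.6 and 25.5 CPM with IL-4, 41.6, 49.3 and 54.1 CPM with IFN-γ, and 37.4, 45.4 and 36.2 CPM in controls. It fell at 400 µM (-0.57 ± 0.14, adjusted p = 0.00747) and at 200 µM (-0.55 ± 0.13, adjusted p = 0.0102), and with IL-4 (-0.46 ± 0.13, adjusted p = 0.0208). It was lower with IL-4 than with IFN-γ (-0.74 ± 0.13, adjusted p = 4.00e-04).

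Cdk4, the kinase of the D cyclins, fell with IFN-γ (-1.07 ± 0.19, adjusted p = 5.86e-04) and with heme-albumin 400 (-0.70 ± 0.19, adjusted p = 0.0149), the second call being lost without heme-albumin 400 replicate 2 (adjusted p = 0.0648). Among the D cyclins, Ccnd1 stood at 779, 405 and 825 CPM with heme-albumin 400, 850.2, 539.9 and 866 CPM with heme-albumin 200, 543, 472 and 589 CPM with IL-4, 782, 772 and 108 CPM with IFN-γ, and 851, 941 and 999.7 CPM in controls, and Ccnd2 at 9.09, 23.5 and 14.2 CPM with heme-albumin 400, 6.30, 8.11 and 15.8 CPM with heme-albumin 200, 12.7, 4.71 and 22.9 CPM with IL-4, 271, 269 and 16.1 CPM with IFN-γ, and 27.3, 25.8 and 42.8 CPM in controls. IFN-γ library 3 lay apart from libraries 1 and 2 in both. Ccnd1 passed no test (adjusted p = 0.246 with IFN-γ), and Ccnd2 rose with IFN-γ (2.55 ± 0.78, adjusted p = 0.0185), although library 3 was below all controls and the call was lost without control 1 (adjusted p = 0.0652), control 2 (adjusted p = 0.0664) or IFN-γ library 2 (adjusted p = 0.0555), and with only the 6 libraries compared (adjusted p = 0.0769). Ccnd3 rose with heme-albumin 200 (0.67 ± 0.20, adjusted p = 0.0261).

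Cdkn2c, the inhibitor p18, stood at 39.5, 15.9 and 31.3 CPM with heme-albumin 400, 46.8, 29.8 and 37.0 CPM with heme-albumin 200, 53.0, 63.7 and 44.0 CPM with IL-4, 33.5, 25.5 and 7.50 CPM with IFN-γ, and 63.9, 67.2 and 60.2 CPM in controls. It fell with IFN-γ (-1.52 ± 0.41, adjusted p = 0.00938), and the replicate block also called it lower with heme-albumin 400 (adjusted p = 0.0435). Cdkn1a, the inhibitor p21, stood at 545, 354 and 531 CPM with heme-albumin 400, 537, 452 and 512 CPM with heme-albumin 200, 484, 409 and 585 CPM with IL-4, 572, 728 and 626 CPM with IFN-γ, and 489.8, 448 and 555 CPM in controls, with 0.37 ± 0.17 for IFN-γ (adjusted p = 0.103) and -0.06 ± 0.17 for heme-albumin 400. Its values overlapped the controls in every treatment but IFN-γ. Foxm1, the factor that drives mitosis genes, stood at 60.1, 18.6 and 45.1 CPM with heme-albumin 400, 55.9, 44.5 and 47.4 CPM with heme-albumin 200, 74.7, 81.4 and 64.8 CPM with IL-4, 61.2, 32.3 and 4.75 CPM with IFN-γ, and 86.2, 93.9 and 89.1 CPM in controls. All its treated values lay below the controls, and its IFN-γ estimate of -1.45 ± 0.57 did not pass (adjusted p = 0.0559; 0.0340 with the replicate block). Myc, a growth regulator, stood at 56.4, 45.6 and 64.7 CPM with heme-albumin 400, 62.9, 68.2 and 71.4 CPM with heme-albumin 200, 82.0, 77.4 and 104 CPM with IL-4, 26.3, 20.9 and 1.10 CPM with IFN-γ, and 42.7, 39.6 and 54.1 CPM in controls, with -1.48 ± 0.57 for IFN-γ (adjusted p = 0.0515) and 2.43 ± 0.58 for IL-4 over IFN-γ (adjusted p = 0.00349). IL-4 values of Myc lay above the controls and IFN-γ values below them.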

How the data were processed

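RNA from 15 macrophage libraries was sequenced with a stranded TruSeq kit, per the labels' protocols. The deposited values are raw counts per gene in 1 table; the submitters' processing notes name STAR 2.7.0e, SAMtools 1.9, featureCounts and GRCm38.p5. The annotation and strand setting are not given in the sources used here. Coordinates are GRCm38 with GENCODE M21; promoters are RefSeq's on GRCm38.p6.

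Counts were fitted with edgeR 4.0.16 in R 4.3.3 (filterByExpr, TMM factors 0.886 to 1.12, 1 quasi-likelihood fit of all 15 libraries, group means only). Adjusted p-values are edgeR's, Benjamini-Hochberg over 11883 genes, threshold 0.05. SE is the absolute log2 coefficient over the square root of F. DESeq2 1.42.0 was run as an alternative. Scripts were tested on simulated data. No library was a copy, since chi-square between replicates, divided by its degrees of freedom, was 7.20 to 138.

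The column names give each replicate number 1 date in every group, taken here as pairing the samples; what the date marks is not stated. In 30 same-number pairs the deviations correlated with a median of 0.193 (-0.206 to 0.512), against -0.0992 in 60 other pairs, and in 14 of 15 libraries the best match had the same number.

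Members and lists were chosen with earlier results of these data known. Per-library values are given for called members and for others named by rule; of other genes, at most 4 per list and comparison with the smallest p, plus 8 regulators.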

Additional observations from a re-analysis of the deposited data

How the results depend on the processing

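The member counts kept within 1.5 times of those reported in 143 alternative values and moved further in 45. Called lower with heme-albumin 400 (1 as reported) were 4 with DESeq2 (13% of all genes), 3 with the replicate block, 20 with only the 6 libraries compared, 30 with both of these, 29 without IFN-γ libraries, 9 without the 2 libraries that stand apart, and 0 to 3 leaving out single replicates. With heme-albumin 200 (0 as reported) these were 1, 1, 35, 38, 24 and 25, with 0 for single replicates; with IL-4 (0) they were 0, 0, 31, 33, 9 and 9. With IFN-γ (27) the replicate block gave 32, only the 6 libraries 5, both of these 6, and single replicates 8 to 37. Over all genes and in either direction, the block with 6 libraries called 2863 with heme-albumin 400 and 4936 with heme-albumin 200. It called 6552 with IL-4, 3703 with IFN-γ and 4845 for IL-4 over IFN-γ. As reported, these were 3023, 2785, 3190, 5189 and 6014. Without the 2 libraries that stand apart, 4586 genes were called with IL-4 and 6334 for IL-4 over IFN-γ. Upper-quartile factors called 6082 genes for IL-4 over IFN-γ. Called higher was 1 member with heme-albumin 400 (6 libraries, no IFN-γ libraries, or without the 2), heme-albumin 200 (block with 6 libraries, or without the 2), IL-4 (block with 6 libraries) and IFN-γ (without the 2). For IL-4 over IFN-γ, 10 higher became 16 with upper-quartile factors or without the 2 libraries, 24 with the replicate block, 2 with the 6 libraries, 4 with both and 2 to 36 for single replicates, and 0 lower became 1 without the 2 and 0 to 1 for single replicates. The cause was not tested. The settings without IFN-γ libraries, without the 2 that stand apart, and of the block with 6 libraries were added after seeing the data.

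The S phase sum of controls was 2458 on TMM-scaled sizes, against 2712. Estimates changed sign for Cdkn1a with heme-albumin 400 (0.01 without control 3, 0.11 without replicate 2, 0.12 without the 2; -0.17 to 0.11 for single replicates), Ccne1 with IFN-γ (-0.076 with the block and 6 libraries, -0.35 to 0.45 for single replicates, lowest without library 1) and IL-4 over IFN-γ (-0.55 to 0.25, highest without library 1), and E2f1 with IL-4 (-0.03 without control 1, -0.059 without IL-4 replicate 2, the lowest; highest 0.11). Over all 15 libraries, the paired fit (replicate block) ended no call of a member. It added 5 with IFN-γ, and others with both heme-albumin doses and for IL-4 over IFN-γ. With only the 6 libraries compared, the block kept 6 of the 27 IFN-γ calls and 3 of the 10 for IL-4 over IFN-γ. The smallest library, control 3 with 8427352 counts, limits genes of few CPM. IFN-γ library 3 held 16398891 counts, and its lowest members rest on few of them, such as Ccne2 with 24.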
